A study of Mus musculus with 8 samples.

Results

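The 31 genes described here encode enzymes of the TCA cycle, the pyruvate carrier, the pyruvate dehydrogenase complex with its phosphatases, and the enzymes that feed or drain the cycle. They are a list of names set by function, matched to the gene names of the deposited table, and all 31 were found among its 49584 features and passed the filter on low counts. By role the list holds 2 carrier subunits, 5 pyruvate dehydrogenase subunits, 2 phosphatases, 11 enzymes of the cycle, 4 NADP-dependent or cytosolic counterparts and 7 anaplerotic enzymes.

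The series addressed the role of TEFM, a factor that helps the mitochondrial RNA polymerase elongate, in the expression of mitochondrial DNA (mtDNA). Knockout mice (L/L, cre in the titles, Tefm -/- in the genotype field) carried loxP-flanked Tefm alleles and cre driven by the muscle creatine kinase promoter, which is active in cardiac and skeletal muscle cells, so other cells of the heart are not targeted. Control mice (L/L in the titles, Tefm +/+ in the genotype field) are taken here as carrying the same loxP-flanked alleles without cre. The labels state no age. Total RNA of crude heart mitochondria was sequenced as TruSeq libraries from 4 knockouts and 4 controls, 1 library per sample, so mRNA of nuclear genes was read as far as it came down with the mitochondria.

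The libraries held 21108165 to 25393933 counts in knockouts and 26268804 to 27403415 in controls. Features of mtDNA took 59.3, 44.2, 38.7 and 43.1% of these counts in knockouts 1 to 4, against 72.3 to 74.0% in controls, and counts of all other genes came to 10331611 to 13204546 in knockouts and 6825329 to 7596951 in controls. Knockout 1 thus stood between the other knockouts and the controls. Tefm had 6.35, 6.74, 6.64 and 7.72 CPM in knockouts 1 to 4, against 5.80, 6.13, 5.87 and 7.18 CPM in controls 1 to 4, a log2 fold change of 0.14 (95% interval -0.10 to 0.37, adjusted p = 0.324). The count covers the whole gene while only an exon, not named in the labels, was excised, so it does not check the genotype labels. Values below are TMM-scaled CPM, a count relative to the scaled total of its library. Adjusted p-values are from edgeR's quasi-likelihood test with Benjamini-Hochberg adjustment over 17891 genes, and a log2 fold change is knockout over control, so that it is relative to the other genes of the library.

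Pyruvate enters mitochondria through the MPC carrier and is oxidised to acetyl-CoA by pyruvate dehydrogenase, which kinases (PDK) switch off and phosphatases (PDP) switch on. The TCA cycle condenses acetyl-CoA with oxaloacetate and oxidises it to CO2, passing electrons to NAD and to succinate dehydrogenase. Anaplerotic and cataplerotic enzymes (pyruvate carboxylase, malic enzymes, transaminases, glutamate dehydrogenase) add or remove intermediates.

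The 31 genes did not move together. Cytosolic aspartate aminotransferase (Got1), malic enzymes Me1 and Me2, and the pyruvate dehydrogenase subunits Pdhb and Pdhx rose in knockouts, while the phosphatase Pdp2 fell furthest, with a 5.32-fold lower level. In all, 5 members rose, where 26.1% of all genes tested rose, and 11 members fell, where 23.9% of all genes fell. Together 16 of 31 (51.6%) were called, against 50.0% of all genes, so the members were called about as often as genes at large. Knockout and control ranges did not overlap in 17 members (54.8%), against 45.4% of all genes. Only 3 called members changed at least 2-fold (Pdp2, Got1 and Me2), where 2513 of the 17891 genes tested were called at that size. The median log2 fold change was -0.15 for the members and -0.01 for all genes, and the median absolute value was 0.33 for the members and 0.38 for all genes.

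With library totals in place of TMM, which counts mtDNA reads in the scale, the median of all genes moved up by 0.99 on the log2 scale, and 10 of the 11 members that fell had values above 0. Pdp2 was the exception, with a log2 fold change of -1.43 (adjusted p = 3.28e-08). Falls given below are therefore falls relative to other nuclear-gene RNA of the same library. The members together took 1.10, 0.946, 1.02 and 1.01% of nuclear-gene counts in knockouts 1 to 4, against 1.05, 1.04, 1.04 and 1.02% in controls 1 to 4, and these ranges overlap.

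**Figure D1:**
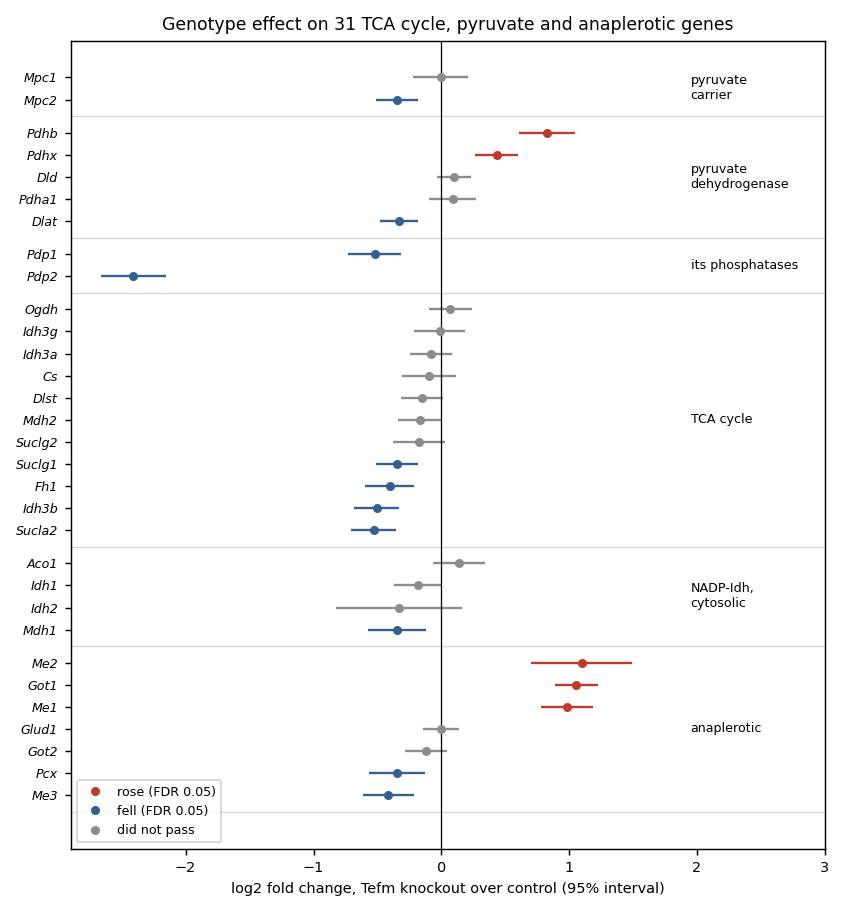
Log2 fold change of each of the 31 genes, knockout over control (horizontal axis; points are estimates, bars 95% intervals), grouped by role and coloured by call at a Benjamini-Hochberg adjusted p of 0.05. The phosphatase Pdp2 lies far to the left at -2.41 and Me2, Got1 and Me1 lie near 1. No gene of the cycle rose, where 26.1% of all genes tested rose. With library totals as the only scaling, every gene but Pdp2 lies above 0.

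Promoter windows of RefSeq (GRCm38.p6, 250 bases before to 50 after the start) were found for 28 of the 31 genes, in 37 windows. None was found for Me2, the member with the largest rise, nor for Pdp1 and Idh3a. The windows of Pdp2, the gene with the largest fall, and of Got1, Me1 and Pdhb, which rose, are shown to let their letters be set beside the changes. Each of these 4 windows holds a match, whereas a further window of Me1 (chr9:86687228-86687527, minus strand) and that of Pdhx, which also rose, hold none of the motifs and are not printed. Capitals mark a match to any of 7 motifs searched on both strands: CACGTG (E-box) in Pdp2 (chr8:104591222-104591521, plus strand), TTNCATCA (an ATF4 element) in Got1 (chr19:43524556-43524855, minus strand), and TGACNNNGC (antioxidant response element) in Me1 (chr9:86695865-86696164, minus strand) and Pdhb (chr14:8172943-8173242, minus strand). Each reads 5′ to 3′ on the gene's strand.
Pdp2: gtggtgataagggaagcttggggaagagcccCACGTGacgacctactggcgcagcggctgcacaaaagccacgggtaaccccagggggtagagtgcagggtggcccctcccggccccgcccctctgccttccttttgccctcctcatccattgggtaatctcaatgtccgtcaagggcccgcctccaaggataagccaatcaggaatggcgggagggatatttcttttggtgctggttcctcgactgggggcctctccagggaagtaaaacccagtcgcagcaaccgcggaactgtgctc
Got1: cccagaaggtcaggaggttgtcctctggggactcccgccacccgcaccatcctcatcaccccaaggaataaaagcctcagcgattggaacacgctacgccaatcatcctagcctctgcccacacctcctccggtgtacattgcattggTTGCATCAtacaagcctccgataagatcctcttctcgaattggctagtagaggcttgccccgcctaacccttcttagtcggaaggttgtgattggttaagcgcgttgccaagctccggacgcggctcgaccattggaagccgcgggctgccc
Me1: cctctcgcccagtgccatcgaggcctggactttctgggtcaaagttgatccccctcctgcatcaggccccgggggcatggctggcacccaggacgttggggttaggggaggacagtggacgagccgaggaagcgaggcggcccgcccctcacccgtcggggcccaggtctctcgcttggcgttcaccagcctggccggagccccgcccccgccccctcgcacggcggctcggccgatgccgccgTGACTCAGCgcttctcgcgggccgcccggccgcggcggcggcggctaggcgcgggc
Pdhb: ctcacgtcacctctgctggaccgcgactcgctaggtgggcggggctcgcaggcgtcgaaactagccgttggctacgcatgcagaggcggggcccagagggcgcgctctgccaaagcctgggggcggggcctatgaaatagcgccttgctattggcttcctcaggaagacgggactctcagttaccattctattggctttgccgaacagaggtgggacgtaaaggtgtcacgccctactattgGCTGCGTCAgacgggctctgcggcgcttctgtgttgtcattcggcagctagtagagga

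Among all 32851 windows CACGTG stood in 7.15%, TTNCATCA in 3.97% and TGACNNNGC in 12.4%, and among the members' 37 windows in 5, 2 and 7. TTNCATCA stood in Got1, which rose, and in Me3, which fell. TGACNNNGC stood in Me1 and Pdhb, which rose, in Mdh1 and Sucla2, which fell, and in Dlst, Idh3g and Mpc1, which did not pass. CACGTG stood in Pdp2 and Pcx, which fell, and in Ogdh, where 2 of the windows with a match overlap and share the same site. CGCATGCG (NRF1 core, 1.87% of all windows) stood in these 2 overlapping windows of Ogdh, again at a shared site. Counts of windows are thus not counts of sites. TGATGNAAT, a longer ATF4 element that contains the reverse complement of TTNCATCA, TNAAGGTCA (estrogen-related receptor) and the PPAR element stood in no member window, at 0.965, 1.28 and 0.0396% of all windows. A match is a description of letters and not a bound site.

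The mitochondrial pyruvate carrier is a complex of MPC1 and MPC2. Mpc2 had 48.3, 40.6, 46.7 and 44.7 CPM in knockouts 1 to 4, against 53.4, 55.8, 59.0 and 61.3 CPM in controls 1 to 4. All knockouts lay below all controls, and Mpc2 fell with a log2 fold change of -0.35 ± 0.08 (SE, adjusted p = 0.00166). Mpc1 ranged over 12.0 to 16.9 CPM in knockouts and 13.9 to 15.2 CPM in controls, with a log2 fold change of -0.00 (95% interval -0.22 to 0.21, adjusted p = 0.974). The ratio of Mpc1 to Mpc2 counts within a library, which no library scaling moves, differed by 0.34 on the log2 scale (two-sided exact permutation test, p = 0.0286, 0.0371 after Benjamini-Hochberg adjustment over 13 ratios).

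Among the subunits of the pyruvate dehydrogenase complex, Pdhb and Pdhx rose, Dlat fell, and Pdha1 and Dld did not pass. Pdhb, the beta subunit of the decarboxylase (E1), had 146, 168, 208 and 201 CPM in knockouts 1 to 4, against 98.2, 103, 103 and 104 CPM in controls 1 to 4. Every knockout exceeded every control, knockout 1 by least, and the mean was 1.77-fold higher, a log2 fold change of 0.83 ± 0.10 (SE, adjusted p = 1.49e-05). Its partner Pdha1, the E1 alpha subunit, ranged over 379 to 488 CPM in knockouts and 387 to 411 CPM in controls, with a log2 fold change of 0.09 (95% interval -0.10 to 0.27, adjusted p = 0.427). The groups overlap for Pdha1, and 16.1% of its exon length is shared with Map3k15 on the opposite strand, whose reads cannot be told apart without knowing whether counting used strand. The count ratio of Pdha1 to Pdhb was 3.34, 2.26, 2.01 and 2.09 in knockouts 1 to 4, against 4.08, 3.76, 3.98 and 3.92 in controls 1 to 4. Every knockout ratio was lower, by -0.73 on the log2 scale.

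Pdhx encodes the subunit that binds the E3 component to the complex, and Dlat the acetyltransferase (E2) core it joins. Pdhx had 53.1, 43.0, 53.2 and 47.1 CPM in knockouts 1 to 4, against 36.5, 36.7, 35.7 and 36.6 CPM in controls 1 to 4. Its groups do not overlap, and Pdhx rose 1.35-fold, with a log2 fold change of 0.43 ± 0.08 (SE, adjusted p = 0.000432). Dlat had 113, 99.6, 102 and 104 CPM in knockouts 1 to 4, against 134, 131, 131 and 130.2 CPM in controls 1 to 4. It fell in every knockout relative to every control, with a log2 fold change of -0.33 ± 0.07 (SE, adjusted p = 0.00112). The count ratio of Pdhx to Dlat was 0.471, 0.432, 0.524 and 0.451 in knockouts 1 to 4, against 0.272, 0.280, 0.273 and 0.282 in controls 1 to 4. This ratio was higher in all knockouts, by 0.76 on the log2 scale. Dld, the E3 dehydrogenase shared with other dehydrogenase complexes, ranged over 66.5 to 71.2 CPM in knockouts and 64.2 to 65.3 CPM in controls, without overlap, yet its log2 fold change of 0.10 (95% interval -0.04 to 0.23, adjusted p = 0.209) did not pass.

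Both phosphatases that reactivate pyruvate dehydrogenase fell. Pdp2 (ENSMUSG00000048371.8, chr8:104591451-104599026, plus strand, GRCm38) had 6.81, 6.45, 5.02 and 6.40 CPM in knockouts 1 to 4, against 32.4, 37.5, 34.4 and 26.8 CPM in controls 1 to 4. The highest knockout was far under the lowest control, on 174 to 223 raw counts in knockouts and 538 to 715 in controls, and Pdp2 fell with a log2 fold change of -2.41 ± 0.12 (SE, adjusted p = 1.76e-09). Pdp1, the isoform stimulated by calcium, had 23.6, 19.1, 18.7 and 19.2 CPM in knockouts 1 to 4, against 28.8, 33.5, 26.9 and 26.2 CPM in controls 1 to 4. Its groups do not overlap either, and Pdp1 fell with a log2 fold change of -0.52 ± 0.10 (SE, adjusted p = 0.000518). Within libraries the count ratio of Pdp1 to Pdp2 was 3.45, 2.95, 3.72 and 3.0 in knockouts 1 to 4, against 0.891, 0.894, 0.784 and 0.978 in controls 1 to 4. The ratio was thus higher in every knockout, a log2 difference of 1.88 (exact permutation p = 0.0286, adjusted 0.0371). Counts are not corrected for length, so a ratio under 1 in controls does not place Pdp1 below Pdp2. Per kilobase of exon Pdp1 averaged 6.41 CPM and Pdp2 5.75 CPM in controls.

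The opposing kinases, Pdk1 to Pdk4, were read as part of a list of other genes of the pathway. Of the 4, 3 rose and 1 fell, where 26.1% of all genes tested rose and 23.9% fell. Pdk4, the kinase induced by fasting and fatty acids, had 198, 279, 430.3 and 356 CPM in knockouts 1 to 4, against 163, 143, 106 and 136 CPM in controls 1 to 4. All knockouts exceeded all controls, knockout 1 by least, and Pdk4 rose 2.30-fold, with a log2 fold change of 1.20 ± 0.19 (SE, adjusted p = 0.000146). Pdk3, which had few counts, rose with a log2 fold change of 1.43 ± 0.22 (SE, adjusted p = 0.000102), at 1.5 to 2.06 CPM in knockouts and 0.498 to 0.786 CPM in controls. Pdk1 rose with a log2 fold change of 0.26 ± 0.09 (SE, adjusted p = 0.0222), though its libraries overlap. Pdk2 was the kinase that fell, with a log2 fold change of -0.59 ± 0.10 (SE, adjusted p = 0.000166). Summed per kilobase of exon, the 4 kinases had 94.9, 108, 156 and 132 CPM per kb in knockouts 1 to 4, against 85.9, 81.5, 69.2 and 75.6 in controls 1 to 4. The 2 phosphatases had 6.42, 5.37, 5.04 and 5.38 CPM per kb in knockouts 1 to 4, against 12.1, 14.01, 12.0 and 10.5 in controls 1 to 4. The ratio of these sums was 14.8 to 30.9 in knockouts and 5.76 to 7.19 in controls, a description chosen after the values were seen and given without a test.

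**Figure D2:**
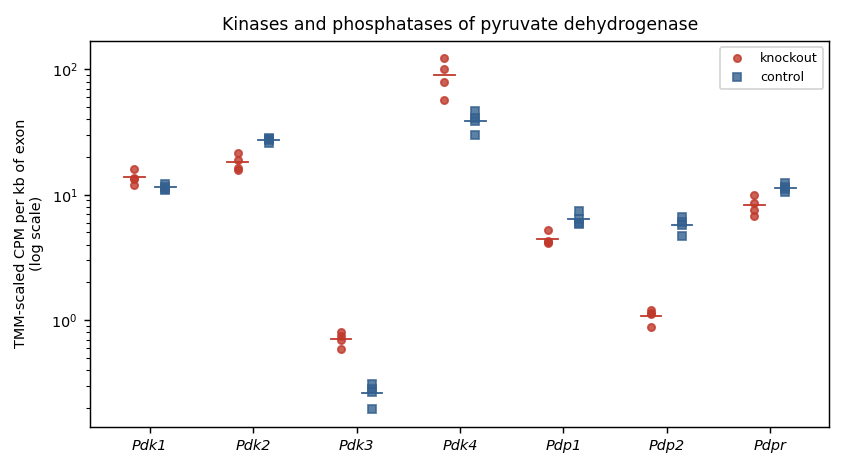
TMM-scaled CPM per kilobase of exon (log axis) of the pyruvate dehydrogenase kinases Pdk1 to Pdk4, the phosphatases Pdp1 and Pdp2 and the phosphatase regulator Pdpr, with knockouts left of controls; points are libraries and lines are means. Pdk4 lies higher in knockouts while Pdp2 lies 5.32-fold lower; with library totals as the scaling Pdp1 lies higher in knockouts too and Pdp2 still lies lower.

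No gene of the cycle rose. Of 11, 4 fell (Sucla2, Idh3b, Fh1 and Suclg1) and 7 did not pass, with a median log2 fold change of -0.17. Of all genes tested 26.1% rose and 23.9% fell. In either direction 36.4% of these 11 were called, against 50.0% of all genes. With library totals all 11 lay above 0. Succinyl-CoA ligase makes succinate and ATP or GTP from succinyl-CoA, with the shared alpha subunit Suclg1 and either Sucla2 (ATP form) or Suclg2 (GTP form). Sucla2 had 99.2, 77.5, 92.4 and 92.6 CPM in knockouts 1 to 4, against 131, 127, 137 and 127 CPM in controls 1 to 4. Its groups do not overlap, and it fell with a log2 fold change of -0.53 ± 0.08 (SE, adjusted p = 0.000109). Suclg1 had 37.9, 32.3, 31.9 and 31.6 CPM in knockouts 1 to 4, against 42.6, 41.1, 41.3 and 45.1 CPM in controls 1 to 4. It fell as well, with knockout 1 nearest the controls and a log2 fold change of -0.35 ± 0.08 (SE, adjusted p = 0.00174). Suclg2 ranged over 30.6 to 41.0 CPM in knockouts and 36.2 to 43.1 CPM in controls, with a log2 fold change of -0.17 (95% interval -0.38 to 0.03, adjusted p = 0.141). The ratio of Sucla2 to Suclg2 counts was 2.42 to 2.85 in knockouts and 3.11 to 3.50 in controls. It was lower in all knockouts, by -0.35 on the log2 scale.

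NAD-dependent isocitrate dehydrogenase is built of the catalytic alpha subunit Idh3a with Idh3b and Idh3g. Idh3b had 80.5, 61.4, 70.3 and 72.9 CPM in knockouts 1 to 4, against 103, 97.7, 103 and 102 CPM in controls 1 to 4. It fell without overlap, with a log2 fold change of -0.51 ± 0.08 (SE, adjusted p = 0.000163). Idh3a had a log2 fold change of -0.08 (95% interval -0.24 to 0.08, adjusted p = 0.391) and Idh3g one of -0.01 (95% interval -0.22 to 0.19, adjusted p = 0.914), and both overlap between groups. The subunits therefore changed unequally: the ratio of Idh3a to Idh3b was higher in every knockout by 0.43 and that of Idh3g to Idh3b by 0.49 on the log2 scale (exact permutation p = 0.0286 each, adjusted 0.0371). Fumarase, Fh1, had 48.1, 37.5, 39.3 and 37.3 CPM in knockouts 1 to 4, against 53.4, 50.9, 52.7 and 57.4 CPM in controls 1 to 4. Its groups do not overlap and it fell with a log2 fold change of -0.40 ± 0.09 (SE, adjusted p = 0.00159).

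The other members of the cycle gave intervals that include 0. Citrate synthase, Cs, which forms citrate at the entry of the cycle, ranged over 398 to 551 CPM in knockouts and 483 to 519 CPM in controls, with a log2 fold change of -0.10 (95% interval -0.30 to 0.11, adjusted p = 0.432). Ogdh and Dlst are the E1 and E2 components of the 2-oxoglutarate dehydrogenase complex. Ogdh ranged over 486 to 522 CPM in knockouts and 446 to 511 CPM in controls, with a log2 fold change of 0.07 (95% interval -0.10 to 0.24, adjusted p = 0.472), and Dlst had one of -0.15 (95% interval -0.32 to 0.01, adjusted p = 0.117). Malate dehydrogenase of the matrix, Mdh2, ranged over 81.4 to 100.4 CPM in knockouts and 93.9 to 102 CPM in controls, with a log2 fold change of -0.17 (95% interval -0.34 to 0.00, adjusted p = 0.0913). These intervals do not show that levels were equal. Without knockout 1, Cs (-0.19), Mdh2 (-0.25) and Suclg2 (-0.26) passed and fell.

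The 4 NADP-dependent or cytosolic counterparts held 1 gene that fell, where 23.9% of all genes tested fell. Cytosolic malate dehydrogenase, Mdh1, an enzyme of the malate-aspartate shuttle, ranged over 208 to 310.0 CPM in knockouts and 311 to 323 CPM in controls. These ranges are barely apart, with knockout 1 next to the lowest control, and Mdh1 fell with a log2 fold change of -0.35 ± 0.11 (SE, adjusted p = 0.0144). Idh2, the mitochondrial NADP isocitrate dehydrogenase, had 455, 167, 234 and 205 CPM in knockouts 1 to 4, against 361, 348, 328 and 297 CPM in controls 1 to 4. Knockout 1 lay above all controls and the other 3 knockouts below all of them, so the log2 fold change of -0.33 (95% interval -0.83 to 0.16, adjusted p = 0.251) rests on that library, and without it Idh2 fell by 0.73 on the log2 scale (adjusted p = 5.69e-06). Cytosolic Idh1 had a log2 fold change of -0.19 (95% interval -0.37 to -0.00, adjusted p = 0.0890) and fell without knockout 1 (-0.22). Cytosolic aconitase, Aco1, had one of 0.14 (95% interval -0.07 to 0.35, adjusted p = 0.245).

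The anaplerotic enzymes held 3 of the 5 rises: 3 of 7 rose, 2 fell and 2 did not pass. Of all genes tested 26.1% rose and 23.9% fell. Got1, cytosolic aspartate aminotransferase of the malate-aspartate shuttle (ENSMUSG00000025190.13, chr19:43499752-43524605, minus strand, GRCm38), had 402, 355, 411 and 389 CPM in knockouts 1 to 4, against 183, 180.4, 189 and 196 CPM in controls 1 to 4. The groups lie far apart, and Got1 rose 2.08-fold, with a log2 fold change of 1.06 ± 0.08 (SE, adjusted p = 9.10e-08). Its mitochondrial isozyme Got2 ranged over 191 to 227 CPM in knockouts and 222 to 233 CPM in controls, with a log2 fold change of -0.12 (95% interval -0.28 to 0.04, adjusted p = 0.200). The count ratio of Got1 to Got2 was 1.93, 1.86, 1.81 and 1.87 in knockouts 1 to 4, against 0.822, 0.808, 0.811 and 0.853 in controls 1 to 4. Knockout 1, which lay toward the controls for several other genes, was here the highest, and the log2 difference of 1.18 was 1.16 to 1.20 when any library was left out. With counts of the near-identical copy Got2-ps1 added, Got2 had more counts than Got1 in every library. Whether the count ratio crosses 1 thus depends on that copy, and counts are not corrected for length. Per kilobase of exon, without the copy, Got1 averaged 73.6 CPM and Got2 47.1 CPM in controls, so Got1 already stood higher there.

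Malic enzymes convert malate to pyruvate: ME1 is cytosolic and makes NADPH, while ME2 and ME3 are mitochondrial. Me1 (ENSMUSG00000032418.15, chr9:86581371-86695953, minus strand, GRCm38) had 38.1, 44.4, 34.2 and 33.6 CPM in knockouts 1 to 4, against 20.3, 18.4, 18.8 and 18.5 CPM in controls 1 to 4. It rose 1.98-fold without overlap, with a log2 fold change of 0.98 ± 0.09 (SE, adjusted p = 1.13e-06). Me2 had 3.44, 2.98, 3.95 and 3.72 CPM in knockouts 1 to 4, against 1.90, 1.83, 1.77 and 1.10 CPM in controls 1 to 4. It rose 2.14-fold, with a log2 fold change of 1.10 ± 0.18 (SE, adjusted p = 0.000204), on only 90 to 137 raw counts in knockouts and 22 to 36 in controls. Me3 had 15.6, 12.7, 15.6 and 13.7 CPM in knockouts 1 to 4, against 17.8, 17.7, 21.0 and 20.4 CPM in controls 1 to 4. Unlike the other malic enzymes it fell, with a log2 fold change of -0.42 ± 0.09 (SE, adjusted p = 0.00192). The ratios of Me1 to Me3 and of Me2 to Me3 were higher in every knockout, by 1.39 and 1.52 on the log2 scale (exact permutation p = 0.0286 each, adjusted 0.0371).

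Pyruvate carboxylase, Pcx, which makes oxaloacetate from pyruvate, ranged over 8.68 to 11.3 CPM in knockouts and 12.0 to 14.02 CPM in controls. It fell without overlap, with a log2 fold change of -0.34 ± 0.10 (SE, adjusted p = 0.0119). Glud1, glutamate dehydrogenase, ranged over 39.6 to 43.8 CPM in knockouts and 40.3 to 43.7 CPM in controls, with a log2 fold change of -0.00 (95% interval -0.15 to 0.14, adjusted p = 0.980), and its groups overlap.

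**Figure D3:**
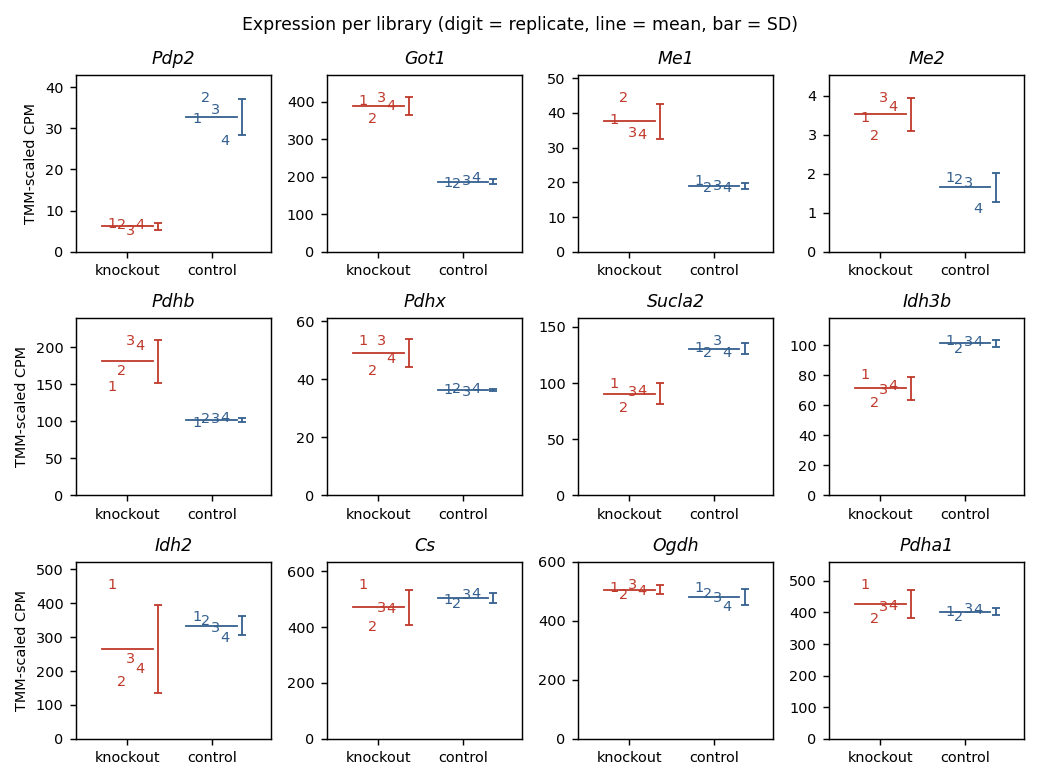
TMM-scaled CPM in each library for 12 of the genes, knockouts left of controls; digits are the replicate numbers, lines the means and bars the SD of 4 libraries. Pdp2, Got1, Me1, Me2, Pdhb, Pdhx, Sucla2 and Idh3b show groups that do not overlap, and Idh2 shows knockout 1 at 455 CPM above every control while the other knockouts lie between 167 and 234 CPM; with library totals the falls of Sucla2 and Idh3b become values above 0.

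Of the 13 isozyme and subunit ratios compared, 10 differed between groups after adjustment, 8 higher and 2 lower in knockouts, each at the smallest p that 70 relabelings allow. No rate for gene pairs at large stands beside this count, and 45.4% of all single genes tested had ranges that did not overlap. The ratios of Me1 and Me2 to Me3 and of Pdhx to Dlat set genes that rose over genes that fell. At that p no ratio could pass the adjustment alone, so each adjusted value rests on the other ratios too. Idh3b, Me3 and Pdha1 each enter 2 ratios, so the ratios are not separate from each other. The ratios that did not pass were Mdh1 to Mdh2 (log2 difference -0.19, exact permutation p = 0.0857, adjusted 0.0929), Idh1 to Idh2 (0.25, p = 0.371, adjusted 0.371) and Pcx to Pdha1 (-0.44, p = 0.0571, adjusted 0.0675). A comparison of 3 with 4 libraries cannot go under 0.0571, so leaving out a library ends every one of these calls, while each of the 10 differences kept its direction. The log2 difference for Idh1 to Idh2 was 0.52 without knockout 1, 0.11 without knockout 2 and 0.12 without knockout 4.

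**Figure D4:**
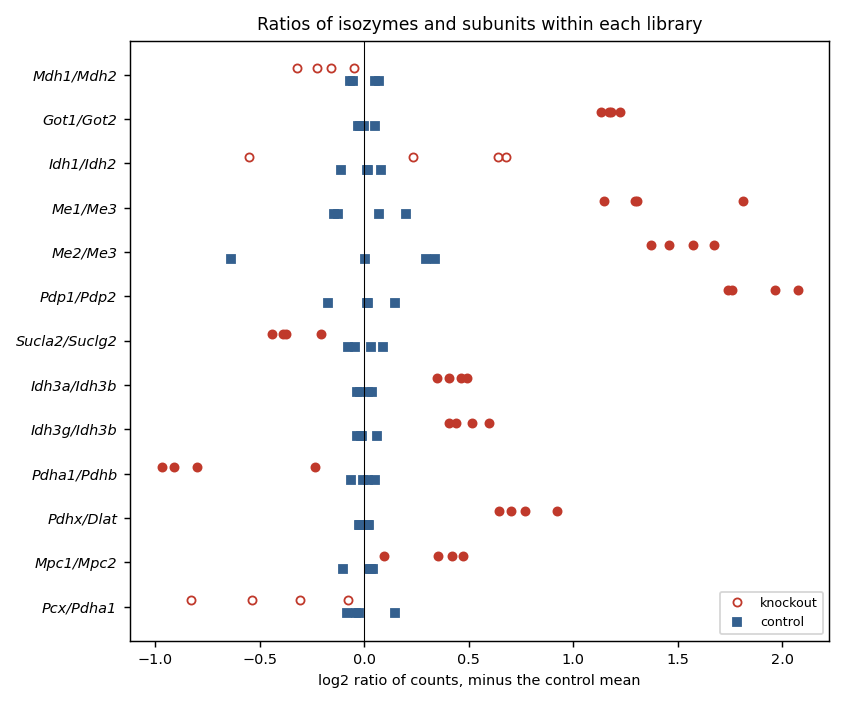
Log2 ratio of the counts of 2 genes within each library, minus the mean of the controls; circles are knockouts (filled where the ratio differed after adjustment, open where it did not) and squares are controls. The ratio of Pdp1 to Pdp2 (1.88), the malic enzyme ratios and the ratio of Got1 to Got2 lie furthest right, and that of Pdha1 to Pdhb (-0.73) furthest left.

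Levels can be compared between genes only per length, and length here is the union of annotated exons, which overstates it for genes with many transcripts. On that scale Idh2 (129 CPM per kb), Mdh1 (123) and Pdha1 (108) led in controls, and Got1 (73.6) was the sixth. In knockouts Got1 led with 153 ± 9.74 CPM per kb (SD, n = 4), followed by Pdha1 with 114 ± 12.1 and Idh2 with 102 ± 50.0, which do not differ beyond their spread. Me2 was the lowest gene in both groups, with 0.486 CPM per kb in knockouts and 0.227 in controls.

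Several members have near-identical copies elsewhere in the genome, and how reads matching several places were assigned is stated in no label or file header. Transcripts of 16 annotated genes matched 9 members over at least 200 bases at 90% identity or more, 12 of these were in the count table and 8 passed the filter. Got2-ps1 (99.1% identity over 1293 bases) held 51981 counts over all libraries, against 43850 for Got2, and Mpc1-ps (99.7% over 330 bases) held 19693, against 2916 for Mpc1. Gm6123, a processed pseudogene of Pdhb (97.0% over 1079 bases), had 199, 216, 274 and 275 CPM in knockouts 1 to 4, against 122, 131, 128 and 131 CPM in controls 1 to 4. Like Pdhb it rose without overlap, with a log2 fold change of 0.91 ± 0.10 (SE, adjusted p = 6.75e-06). Mpc1-ps had 112, 85.4, 109 and 110.0 CPM in knockouts 1 to 4, against 85.8, 88.3, 88.0 and 81.2 CPM in controls 1 to 4. It rose too, with a log2 fold change of 0.28 ± 0.09 (SE, adjusted p = 0.0178), though knockout 2 lay among the controls. Gm7329, a copy of part of Me1, rose with a log2 fold change of 0.66 ± 0.22 (SE, adjusted p = 0.0221) on 272 counts in all. With copies added to their gene, Pdhb had a log2 fold change of 0.87 and Me1 one of 0.97, and Mpc1 passed with 0.24 (adjusted p = 0.0314). The direction for Mpc1 is thus uncertain. The size of count ratios that include Got2, Pdhb, Mpc1 or Suclg2 likewise depends on where reads of their copies were counted. Exons of 7 members also overlap a gene on the opposite strand, over 23.1% of the exon length of Mpc1, 16.1% of Pdha1 and 9.00% of Got2.

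**Figure D5:**
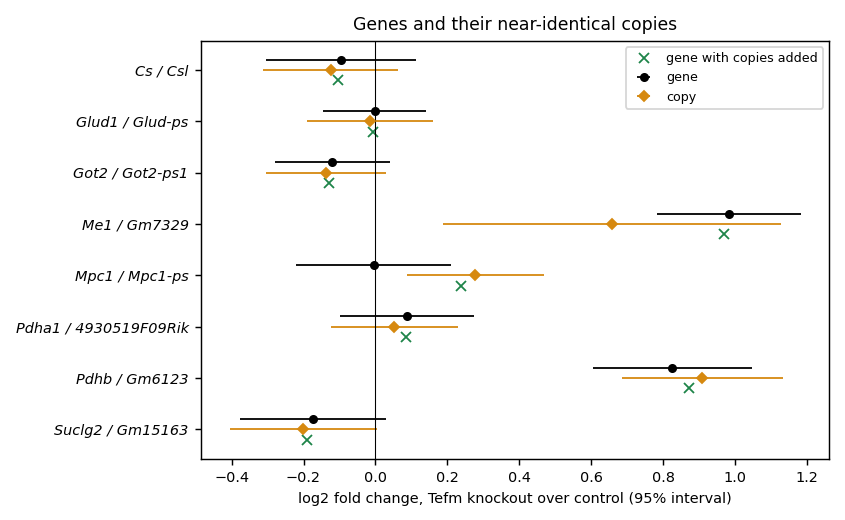
Log2 fold change, knockout over control, of 8 members (circles), of their near-identical copies (diamonds; bars are 95% intervals) and of both counted together (crosses). The copy of Pdhb lies at 0.91 beside Pdhb at 0.83, and Mpc1 moves to 0.24 once its copies are added.

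Of the list of other genes of the pathway, 53 of 57 found passed the filter, 10 rose and 24 fell, where 26.1% of all genes tested rose and 23.9% fell. In either direction 64.2% were called, against 50.0% of all genes. The median log2 fold change of the list was -0.31. Of its genes 11 were called and changed at least 2-fold, where 2513 of the 17891 genes tested were called at that size. With library totals 41 genes of the list rose and 3 fell, so these falls too are relative to other nuclear-gene RNA. Beside the kinases, none of the 8 succinate dehydrogenase subunit and assembly genes rose, 4 fell and 4 did not pass. The flavoprotein subunit Sdha fell with a log2 fold change of -0.50 ± 0.09 (SE, adjusted p = 0.000537), the membrane subunit Sdhc with -0.57 ± 0.08 (SE, adjusted p = 7.14e-05), the iron-sulfur subunit Sdhb with -0.31 ± 0.10 (SE, adjusted p = 0.0200) and the assembly factor Sdhaf2 with -0.27 ± 0.09 (SE, adjusted p = 0.0215). Sdhd (-0.17), Sdhaf1 (-0.29), Sdhaf3 (-0.32) and Sdhaf4 (-0.32) did not pass.

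Among the remaining 9 genes called with at least a 2-fold change, 3 rose. Pck2, the mitochondrial phosphoenolpyruvate carboxykinase that withdraws oxaloacetate, averaged 26.7 ± 4.09 CPM in knockouts and 4.35 ± 0.958 CPM in controls (SD, n = 4 each) and rose 6.13-fold, with a log2 fold change of 2.62 ± 0.15 (SE, adjusted p = 5.79e-09). Glul, glutamine synthetase, averaged 351 ± 53.3 CPM in knockouts and 132 ± 11.1 CPM in controls and rose with a log2 fold change of 1.41 ± 0.11 (SE, adjusted p = 1.58e-07). Adssl1, the muscle adenylosuccinate synthase of the purine nucleotide cycle, rose with a log2 fold change of 1.46 ± 0.10 (SE, adjusted p = 7.43e-08). The 6 that fell include Mut, methylmalonyl-CoA mutase, which supplies succinyl-CoA, at -1.24 ± 0.09 (SE, adjusted p = 5.52e-08), and Ogdhl, a relative of Ogdh, at -1.41 ± 0.12 (SE, adjusted p = 3.88e-07). Alanine aminotransferase Gpt fell with -1.73 ± 0.21 (SE, adjusted p = 9.65e-06), D-lactate dehydrogenase Ldhd with -1.48 ± 0.09 (SE, adjusted p = 2.05e-08), Dhtkd1, a 2-oxoadipate dehydrogenase subunit, with -1.42 ± 0.19 (SE, adjusted p = 2.37e-05), and D-2-hydroxyglutarate dehydrogenase D2hgdh with -1.04 ± 0.10 (SE, adjusted p = 1.23e-06).

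Markers of cell types were read beside these results, and their calls stand against 26.1% of all genes tested that rose and 23.9% that fell. Of 8 cardiomyocyte markers 6 fell and 1 (Actn2) rose, and their summed level was 36493 to 46648 CPM in knockouts and 58695 to 62268 in controls. Most of this sum was Ttn, which averaged 33383 CPM in knockouts and 45105 CPM in controls. The fibroblast sum was 221 to 405 CPM in knockouts and 240 to 253 in controls, with 2 of 6 risen, and the endothelial sum was 269 to 298 in knockouts and 309 to 326 in controls, with 2 of 5 fallen. For macrophages it was 53.0 to 83.9 CPM in knockouts and 73.3 to 107 in controls, with 3 of 6 fallen, and for smooth muscle 35.1 to 47.6 in knockouts and 43.9 to 59.5 in controls, with 1 of 3 fallen. No red blood cell marker was called (172 to 905 CPM in knockouts and 182 to 457 in controls), though their sum was 905 CPM in knockout 1 and 172 to 329 in the other knockouts. Knockout 1 was also the knockout with the lowest fibroblast sum, 221 CPM against 346 to 405 in the others. No adipocyte marker passed the filter. Of skeletal muscle markers Myh4 was at 0, Myh1 and Myh2 did not pass the filter either, Acta1 rose and Ckm fell. The Ckm promoter is active in cardiac muscle too, and the changes of Acta1 and Ckm are not read as changes in skeletal muscle content. The part of these shifts and of knockout 1's mtDNA share and marker levels in the members' changes was not tested. In such bulk samples fewer cells of a type, less RNA per cell and less RNA retained with the mitochondria cannot be told apart. Knockout 1 was the highest knockout for 10 of the 11 members that fell, and was the lowest knockout for 1 of the 5 that rose. Over all 31 members knockout 1 was the highest knockout for 19 and knockout 2 the lowest for 22.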

How the data were processed

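Per the labels' protocols, RNA of crude heart mitochondria was extracted with a miRNeasy kit and paired ends of TruSeq libraries were read on a MiSeq. The submitters' processing notes name DESeq2 1.14.1, R 3.3.2, featureCounts, bedtools, SAMtools 1.3.1, Bowtie2 and the build mm10, with no order or settings. The authors deposited raw counts per gene, the basis of every value here, and normalized counts (a signal), which were not used. The authors' deposited table of results (log2 fold changes, test scores, p-values and mean signal) served for gene names and for a comparison of calls, in which all 31 members had the same call.

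Replicate libraries were compared, and the counts of each pair differed by more than sampling noise (chi-square per degree of freedom). The values were 2.42 to 3.70 among controls, 7.82 to 14.2 among knockouts 2 to 4 and 81.6 to 125 for pairs with knockout 1. The libraries each counted as a sample. That they came from separate animals follows from the series' design text. The genotype effect was fitted to the counts in edgeR 4.0.16 (quasi-likelihood test, TMM, filterByExpr with a minimum count of 10, threshold 0.05, R 4.3.3). The biological coefficient of variation was 11.3%. Ratios of 13 gene pairs, with 0.5 added to each count, were tested by exact permutation over 70 relabelings (scipy 1.17.1). Intervals are at 95%. Copies were found with blastn 2.17.0 in GENCODE transcripts, and gene coordinates are those of GENCODE on GRCm38. Alternatives were other scalings, nuclear genes alone, no filter, DESeq2 1.42.0, the replicate block, leaving out each library, and copies added.

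Members and lists were chosen with earlier results of these data known. Values per library are given for members called with an absolute log2 fold change of at least 1 and for further called members by smallest p, up to 14 in all; ranges, intervals or fits are given for the rest, and library values of Idh2 were added after they were seen. Of the other pathway genes, every Pdk and Sdh gene is named and, of the others, those called with at least a 2-fold change; Pdpr, in a figure, was chosen after values were seen.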

Additional observations from a re-analysis of the deposited data

Results flagged for a closer look

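In 5 of 88 groups of 4 libraries examined, 1 library stood apart from the other 3 by a gap large against the range of its group; chance flags about 1 in 20 such groups. Pdp1 was at 23.6 CPM in knockout 1, against 18.7 to 19.2 CPM in the other knockouts. Suclg1 was at 37.9 CPM in knockout 1, against 31.6 to 32.3 CPM in the other knockouts. Both values still lay below every control. Me2 was at 1.10 CPM in control 4, on 22 counts, against 1.77 to 1.90 CPM in the other controls. Idh3b was at 97.7 CPM in control 2, against 102 to 103 CPM in the other controls. The log2 ratio of Mpc1 to Mpc2 was -2.09 in control 4, against -1.97 to -1.94 in the other controls.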

How the results depend on the processing

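The same 16 members kept their call with RLE factors, nuclear totals, nuclear genes alone, DESeq2, no filter, the replicate block, copies added and each library left out. With library totals 30 members rose and 1 fell, other pathway genes gave 41 rises and 3 falls, and 14066 of all genes rose and 480 fell, so 96.7% of calls were higher against 52.2% with TMM. The members' median then became 0.85, and log2 fold changes turned positive for Mpc1 (0.97), Mpc2 (0.64), Dlat (0.65), Pdp1 (0.45), Cs (0.88), Idh3a (0.90), Idh3b (0.47), Idh3g (0.95), Dlst (0.85), Sucla2 (0.45), Suclg1 (0.63), Suclg2 (0.80), Fh1 (0.57), Mdh2 (0.81), Idh2 (0.57), Idh1 (0.80), Mdh1 (0.61), Pcx (0.66), Me3 (0.57), Got2 (0.88) and Glud1 (0.99); this scale counts mtDNA reads. Values near 0 changed sign for Mpc1 (0.000216 with nuclear genes alone, 0.0133 with DESeq2, 0.0413 without a filter), Glud1 (0.00248, 0.0155 and 0.0443 in the same order) and Idh3g (0.00397 with DESeq2, 0.0319 without a filter); the cause was not tested. Mpc1 was 0.24 with copies added, an alternative chosen after seeing the data. Over libraries left out, Glud1 ranged over -0.0276 to 0.0307, Idh3g over -0.12 to 0.0486, Mpc1 over -0.0918 to 0.0753 and the members' median over -0.19 to -0.10. Without knockout 1, 16 members fell; with nuclear totals Mdh2 (-0.19) also passed. The ratio of Pcx to Pdha1 passed (adjusted exact p = 0.0338) with 5 added to counts or with copies added. Shared replicate numbers are not said to pair mice, and deviations of same-numbered libraries correlated at -0.0060 to 0.080, with 1 of 4 knockouts closest to its own number; with the replicate block 5 members rose and 11 fell, and 12 other pathway genes rose and 24 fell. Counts of Me2, 22 to 137 per library, limit its precision.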
